A study of Mus musculus with 12 samples.

Results

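Cytosolic ribosomal protein genes were measured in the spinal cord of mice that model SMA (spinal muscular atrophy), in which motor neurons are lost because survival motor neuron protein is scarce. The genes were taken by name: every probe set whose only platform symbol was that of a ribosomal protein of the Rpl, Rps or Rplp series, without the ribosomal S6 kinases and without symbols of named pseudogenes. This gave 98 probe sets of 47 genes, out of 12394 genes measured by a probe set with 1 symbol. For each gene the probe set with the highest mean log2 value was used, and 45 of the 47 genes passed the filter on dim probe sets. Rpl3l, a paralog known from striated muscle, had signals of 2 to 31.8 and Rpl39l, a paralog known from testis, had signals of 1.1 to 19.9, and neither was tested. Another 102 probe sets carry several symbols that include a ribosomal protein gene. They were left out, so genes such as Rpl5, Rplp1 and Rps27a have no member here.

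Ribosomal proteins join ribosomal RNA in the nucleolus to form the small subunit, which decodes messenger RNA, and the large subunit, which joins amino acids. Their messenger RNAs are known to start with a run of pyrimidines, the terminal oligopyrimidine (TOP) motif, through which mTOR signalling and the RNA-binding protein Larp1 control how strongly they are translated. Some ribosomal proteins have a paralog of their own that can take the same place in the ribosome or acts outside it.

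The 12 arrays hold RNA of 3 groups of 4 mice, all aged 13 days and all of the SMA line 4299 on an FVB background. The strain carries Tg(SMN2*delta7)4299Ahmb, Tg(SMN2)89Ahmb and the targeted allele Smn1tm1Msd, so both human transgenes are present in the controls too. The group named wildtype has the genotype SMN2+/+;SmnΔ7+/+;mSmn+/−, with a single intact mouse Smn allele, and received vehicle. The SMA vehicle and SMA ceftriaxone groups have no intact mouse allele (mSmn -/-), and the second received 200 mg/kg of the beta-lactam antibiotic ceftriaxone daily from day 5. The labels speak both of whole cords and of lumbar segments, and they do not give litters or sex, so p-values measure the spread between these samples.

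Smn1, the targeted gene, checks the labels: its mean signal was 313 ± 70.1 in the wildtype group, 4.23 ± 0.991 with SMA and vehicle, and 7.28 ± 5.85 with SMA and ceftriaxone (SD, n = 4). Hox genes of the cord gave signal but differed between the groups. In wildtype, SMA vehicle and SMA ceftriaxone cords in turn, Hoxc9 read 170.3 to 257, 332.2 to 448.6 and 262 to 296.2. Hoxd10, active towards the lower end of the cord, read 386.4 to 768.4, 1538.2 to 2411.1 and 804.5 to 1274.2. The motor neuron gene Mnx1 read 39 to 84.7 over all arrays. That is below the filter on dim probe sets (a geometric mean signal of 125), so its presence is not shown. Wildtype array 2 stood apart: its correlation with the rest of the wildtype group was 0.924 to 0.930, while those 3 arrays correlated with each other at 0.986 to 0.989. The summed signal of 12 measured thymocyte genes was 46616 on it and 6950 to 7109 on the other wildtype arrays, and that of 11 cell cycle genes was 28823 against 5727 to 5847. Counts of member genes called are given with and without it. With 4 arrays a group, the median standard error of a member's log2 fold change was 0.08.

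The members were among the brightest probe sets on these arrays. Of the 47 genes, 33 lay above the 95th percentile of mean log2 signal, a rank that describes probe brightness and does not compare transcript numbers between genes. Their mean log2 signal was 12.10, 12.41, 12.22 and 12.20 on wildtype arrays 1 to 4. It was 12.23, 12.34, 12.32 and 12.34 on the SMA vehicle arrays, and 12.23, 12.22, 12.26 and 12.24 on the SMA ceftriaxone arrays. As group means, wildtype had 12.23 ± 0.13, SMA vehicle 12.31 ± 0.05 and SMA ceftriaxone 12.24 ± 0.02 (SD, n = 4). The groups overlapped, and the highest and the lowest of all arrays were both wildtype. Summed over members, the signal was 1.74% to 2.12% of all signal in wildtype, 1.90% to 2.03% in SMA vehicle and 1.87% to 1.91% in SMA ceftriaxone cords.

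**Figure D1:**
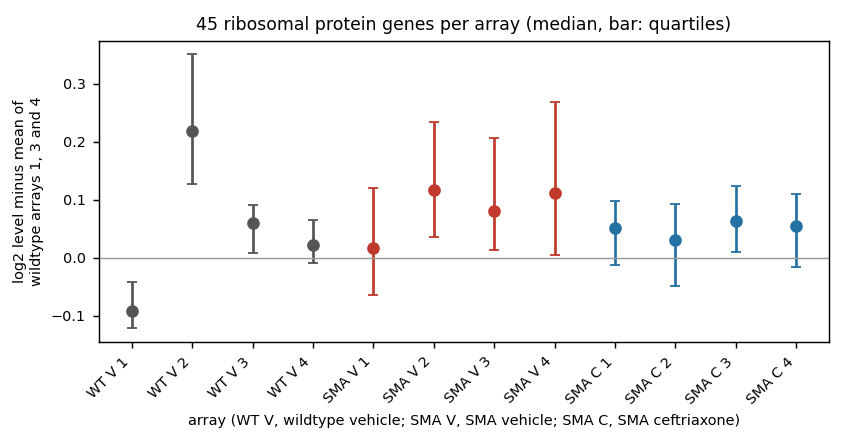
The points give, for each of the 12 arrays, the median over 45 ribosomal protein genes of the log2 level minus the mean of wildtype arrays 1, 3 and 4, and the bars span the quartiles. Wildtype array 2 has the highest median (0.22) and wildtype array 1 the lowest (-0.09), with the SMA ceftriaxone arrays between 0.03 and 0.06.

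Wildtype array 2 was the highest of the 4 wildtype arrays for 33 of the 45 tested members (73.3%) and the lowest for 1. Over all probe sets tested it was the highest for 34.7%. The same array carried the thymocyte and cell cycle signal given above, and its part in the members' levels was not tested. In bulk tissue, fewer cells of a type and less RNA per cell cannot be told apart.

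The first stretches of transcript and the sequence just before them are shown for 6 members that the results turn on, because the TOP motif and the promoter are what these genes are known to share. The windows run from 40 bases before to the 20th base of the transcript as RefSeq places it in GRCm38.p6, each on the gene's own strand, and capitals mark runs of at least 6 pyrimidines. Rpl22l1 lies at chr3:28805468-28805527 on the plus strand, Rpl7l1 at chr17:46782637-46782696 on the minus strand and Rps27l at chr9:66946046-66946105 on the plus strand. Rps19 lies at chr7:24884552-24884611 on the plus strand, Rps2 at chr17:24720023-24720082 on the plus strand and Rpl35 at chr2:39005112-39005171 on the minus strand. For Rps27l and Rps2 the transcript start used lies 1462 and 1942 bases inside the gene's outer bound in the same reference.
Rpl22l1: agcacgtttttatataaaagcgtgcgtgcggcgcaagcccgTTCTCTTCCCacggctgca
Rpl7l1: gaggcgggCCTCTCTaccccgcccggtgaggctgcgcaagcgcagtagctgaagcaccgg
Rps27l: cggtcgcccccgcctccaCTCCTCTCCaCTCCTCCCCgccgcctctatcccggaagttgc
Rps19: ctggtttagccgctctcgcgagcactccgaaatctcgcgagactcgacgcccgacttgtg
Rps2: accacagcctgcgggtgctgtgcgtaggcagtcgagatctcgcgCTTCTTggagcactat
Rpl35: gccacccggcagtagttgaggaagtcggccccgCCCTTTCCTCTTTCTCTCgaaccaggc
In Rpl35 the long run crosses the annotated start, in Rpl22l1 it begins just after it, and in Rps19 no run of at least 6 pyrimidines stands in the window shown. The reference holds 3 promoter entries for Rps19 and 2 for Rps27l, of which only the first is shown. The Rps19 window therefore does not tell whether its other entries have such a run.

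Of the 45 tested members, 39 have an entry in the RefSeq promoter table, and a match in any entry of a gene was counted. A run of at least 8 pyrimidines within 20 bases of the start was found in 20 of these 39 (51.3%), against 18.4% of the 27025 genes in the table. In the window from 250 bases before to 50 after the start, on both strands, CCGGAAG, the core bound by Ets family factors, stood in 19 (48.7%, against 9.93%), and GGGCGG, a GC box, in 23 (59.0%, against 38.2%). AAGATGGC, a YY1 core, stood in 4 (10.3%, against 3.19%) and TATAAA in 6 (15.4%, against 15.7%). These are matches of letters, and no binding was measured.

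SMA vehicle cords were set against wildtype cords to see which members differ between these groups. Of 45 members, 8 passed, where 47.2% of all probe sets tested did: 6 rose (Rps4l, Rps25, Rpl12, Rps19, Rpl22l1 and Rps2) and 2 fell (Rpl7l1 and Rps27l), and 37 did not pass (limma, Benjamini-Hochberg adjusted p under 0.05 over 13575 probe sets). That is 13.3% higher and 4.44% lower, where 24.9% and 22.3% of all probe sets tested passed. The median log2 fold change of the members was 0.049 and its median size 0.095, against 0.015 and 0.296 over all probe sets. The median was 0.094 with median centring and 0.104 with quantile normalization. The arrays of both groups did not overlap for 6 members, or 13.3%, against 42.5% of all probe sets.

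Without wildtype array 2, 15 members rose and 2 fell, where 30.9% and 27.5% of all probe sets passed, and the median became 0.093. All 8 members called with every array were among these 17. The other 9 were Rpl22 (0.68), Rpl35 (0.30), Rpl10a (0.25), Rps20 (0.25), Rps18 (0.21), Rpl6 (0.19), Rpl8 (0.18), Rps7 (0.16) and Rpl4 (0.14), all higher on the log2 scale in SMA vehicle cords.

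**Figure D2:**
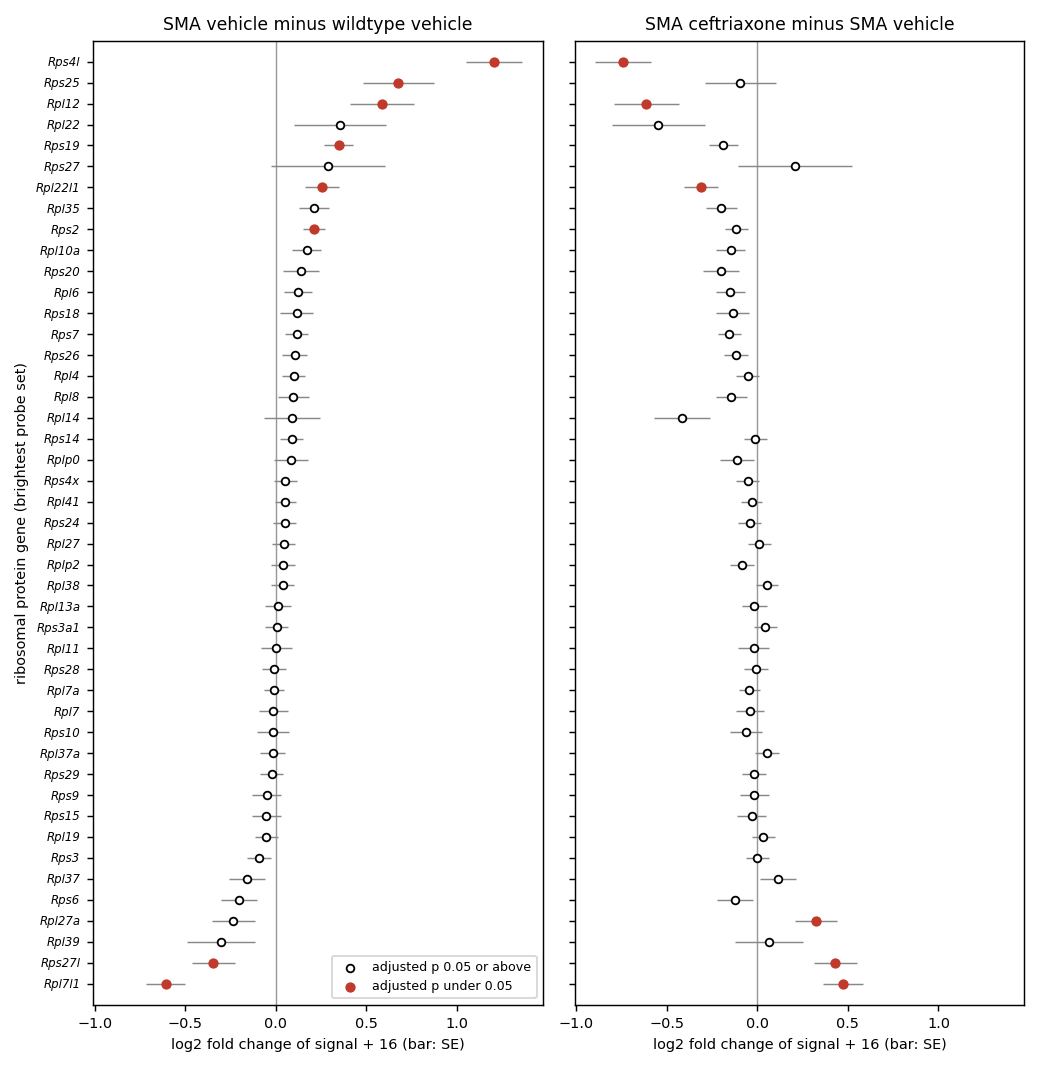
Each point is the log2 fold change of 1 ribosomal protein gene with its standard error as the bar, for SMA vehicle minus wildtype (left) and SMA ceftriaxone minus SMA vehicle (right), and filled points passed the adjusted threshold. Rps4l lies highest on the left (1.21) and lowest on the right (-0.74), Rpl7l1 lies lowest on the left (-0.61) and highest on the right (0.48), and most genes lie within 0.25 of 0.

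The paralogs held 4 of the 8 calls between SMA vehicle and wildtype cords and 4 of the 6 calls between the SMA groups. All 4 tested paralogs passed in both comparisons, where 47.2% and 35.9% of all probe sets tested did, and both use the same SMA vehicle arrays. None of the 4 passed between SMA ceftriaxone and wildtype cords, where 4.21% of all probe sets did. The probe sets of Rps4l, Rpl7l1 and Rps27l had mean log2 values of 9.50 to 11.26, dimmer than most members. Whether paralogs differ from the other members was not tested. In each of the first comparisons 2 were higher and 2 lower.

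Rps4l, a relative of Rps4x that RefSeq annotates as a transcribed pseudogene, had signals of 995.7, 642.5, 635.9 and 736 on wildtype arrays 1 to 4. It had 1436.2, 1637.4, 2091.5 and 1810.6 in SMA vehicle and 1149.1, 950.4, 865 and 1177 in SMA ceftriaxone cords. Every SMA vehicle array lay above every array of the other groups. It rose by 1.21 ± 0.16 (log2, SE; a fold of 2.31) against wildtype (limma adjusted p = 4.34e-05) and was lower by a log2 fold change of -0.74 ± 0.16 with ceftriaxone (adjusted p = 0.00269). Rps4x, the X-linked small-subunit gene that codes for the protein used in ribosomes, had group means of 11972 ± 920 (wildtype), 12392 ± 424 (SMA vehicle) and 11932 ± 350 (SMA ceftriaxone; SD, n = 4). Its log2 fold changes were 0.05 and -0.05 (adjusted p = 0.518 and 0.527). How much of the Rps4l signal comes from Rps4x or from another near-identical copy is uncertain on these arrays.

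Rpl7l1, a relative of the large-subunit gene Rpl7, was the member that fell most. Its signals were 824, 1070.1, 799 and 726.8 in wildtype, 552.1, 536.4, 558.6 and 549.1 in SMA vehicle and 802.1, 748.9, 853.9 and 682.8 in SMA ceftriaxone cords. The SMA vehicle arrays lay within a narrow band below all others. It fell by 0.61 ± 0.11 on the log2 scale in SMA vehicle cords (adjusted p = 0.000556) and rose by 0.48 ± 0.11 with ceftriaxone (adjusted p = 0.00486). The dimmer probe set of the gene had -0.35 (adjusted p = 0.0678) and 0.31 (adjusted p = 0.117). Rpl7 itself had group means of 10075 ± 1220, 9929 ± 401 and 9656 ± 297 in the same order (SD, n = 4), with log2 fold changes of -0.01 (adjusted p = 0.898) and -0.04 (adjusted p = 0.723).

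Rps27l, a paralog of Rps27 known as a target of p53, had signals of 2296.6, 3419, 2520.2 and 2274.3 in wildtype arrays 1 to 4. It had 2175.4, 2242.3, 1865.8 and 1882.6 in SMA vehicle and 2660.9, 2696.8, 2999.8 and 2636.6 in SMA ceftriaxone cords. All SMA vehicle arrays lay below all others, the nearest wildtype array by a small margin. It fell by 0.35 ± 0.12 (log2, adjusted p = 0.0292), or by 0.21 without wildtype array 2 (adjusted p = 0.0333), and rose with ceftriaxone by 0.43 ± 0.12 (adjusted p = 0.0134). Its other probe sets had -0.35 (adjusted p = 0.0176) and -0.27 (adjusted p = 0.137) in the first comparison. The call against wildtype was lost in 4 of the alternative settings tried, among them leaving out SMA vehicle array 3 or 4 (adjusted p = 0.0642 to 0.0837). Rps27 was read only by a dim probe set, with signals from 126 to 402.3 and an adjusted p of 0.479.

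Rpl22l1, whose transcript the protein of its paralog Rpl22 is known to repress, had signals of 7122.9, 7859.9, 6225.8 and 7955 in wildtype and 8206.2, 9189, 8648.7 and 8656.1 in SMA vehicle cords. It had 7676, 5913.6, 6995.4 and 7438.2 in SMA ceftriaxone cords. The SMA vehicle arrays lay above all others. It rose by 0.26 ± 0.09 (log2, adjusted p = 0.0398) and was at -0.31 ± 0.09 with ceftriaxone (adjusted p = 0.0203). The first call was lost in 9 settings (adjusted p = 0.0535 to 0.124), among them leaving out array 1 or 3 of the wildtype, array 2, 3 or 4 of the SMA vehicle or array 3 of the SMA ceftriaxone group. The second was lost in 3 (adjusted p = 0.0574 to 0.107), among them leaving out array 2 of either SMA group.

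**Figure D3:**
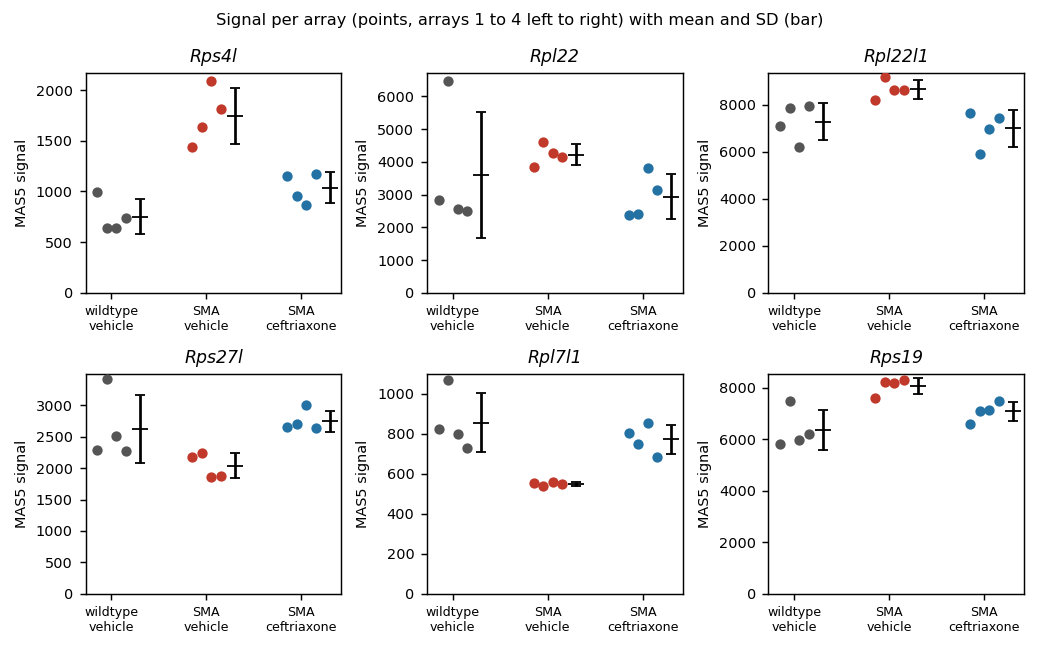
The points give the signal of 6 ribosomal protein genes on each array (arrays 1 to 4 of a group from left to right) on axes that start at 0, with the group mean and SD beside them. The SMA vehicle arrays stand apart from both other groups for Rps4l, Rpl7l1, Rps27l, Rpl22l1 and Rps19, while Rpl22 has 1 wildtype array at 6466 above all others.

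Rpl22 shows how far wildtype array 2 and the choice of probe set matter. The brighter probe set read 2837.9, 6466, 2545.5 and 2496.2 in wildtype, 3837.6, 4602.7, 4275.5 and 4156.3 in SMA vehicle and 2360.5, 2417.8, 3807.3 and 3146.7 in SMA ceftriaxone cords. With array 2 its log2 fold changes were 0.36 ± 0.26 (adjusted p = 0.274) and -0.55 ± 0.26 (adjusted p = 0.113), and without it 0.68 (adjusted p = 0.000958) and -0.55 (adjusted p = 0.00338). The dimmer probe set read 2200.9, 1599.2, 2247.9 and 2170 in wildtype, 3075.1, 3265.2, 3359.2 and 3380.9 in SMA vehicle and 2743.7, 2900.3, 2777.1 and 2899.3 in SMA ceftriaxone cords. There wildtype array 2 was the lowest of its group, and the probe set rose in SMA vehicle cords by 0.68 ± 0.10 (adjusted p = 9.03e-05). It was also higher in SMA ceftriaxone than in wildtype cords, by 0.47 (adjusted p = 0.0188).

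Paralog and parent were also set against each other directly, as the difference of their log2 levels on each array, in 4 pairs and 3 comparisons. Rps4l minus Rps4x was higher by 1.15 in SMA vehicle than in wildtype cords and changed by -0.69 with ceftriaxone. Rpl7l1 minus Rpl7 changed by -0.60 and 0.51. These 4 differences reached the smallest p that an exact two-sided permutation test of 4 against 4 arrays allows (0.0286), and 0 of the 12 passed after Benjamini-Hochberg adjustment (adjusted p = 0.0857), with 4 under 0.05 before it. For Rps27l minus Rps27 the difference was -0.63 between SMA vehicle and wildtype cords (exact p = 0.229), and for Rpl22l1 minus Rpl22 it was -0.10 (exact p = 0.771). The latter depends on wildtype array 2, where Rpl22 read 6466. Rpl22l1 minus Rpl22 ran from 0.28, on that array, to 1.67 in wildtype and from 0.99 to 1.09 in SMA vehicle cords. Without that array the log2 fold changes against wildtype were 0.29 for Rpl22l1 and 0.68 for Rpl22.

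Among the 41 tested members that are no paralog, 4 rose in SMA vehicle against wildtype cords and 0 fell (24.9% and 22.3% of all probe sets). Between the SMA groups 1 of the 41 was higher and 1 lower (18.3% and 17.7% of all probe sets). Without wildtype array 2, 13 of the 41 rose and 0 fell against wildtype (30.9% and 27.5% of all probe sets). Between the SMA groups 1 was then higher and 9 lower (24.6% and 25.6% of all probe sets). Of the 19 tested small-subunit genes 3 rose, and 6 without that array. Of the 22 of the large subunit with its stalk 1 rose, and 7 without it. Without the array these are 31.6% and 31.8%, and the difference between the subunits was not tested. Between the SMA groups, to be read against the shares given above for those groups, 0 small-subunit genes passed (3 lower without that array). For the large subunit 1 gene was higher and 1 lower (1 and 6). Rps19, needed to mature the small subunit's RNA and the first gene linked to Diamond-Blackfan anaemia, had signals of 5797.8, 7475.5, 5958.4 and 6221.9 in wildtype and 7594.6, 8225.1, 8166.7 and 8289.8 in SMA vehicle cords. It had 6575.2, 7102.1, 7148.7 and 7494 in SMA ceftriaxone cords, so that the SMA vehicle arrays overlapped with neither group. It rose by 0.35 ± 0.08 (log2, a fold of 1.27; adjusted p = 0.00288), and its value with ceftriaxone against SMA vehicle was -0.19 (adjusted p = 0.0821, and 0.00769 without wildtype array 2). Of 12 measured mouse orthologs of genes mutated in that anaemia, Rps19 was the 1 that passed, or 8.33% against 47.2% of all probe sets. Without wildtype array 2, 4 of them rose (33.3%, against 30.9% of all probe sets).

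Rps2, a protein near the entry of the messenger RNA channel, had signals of 10692, 11792.7, 12337.8 and 11968.5 in wildtype, and 12652.1, 13714.8, 13686.2 and 14035.4 in SMA vehicle cords. It rose by 0.21 ± 0.06 (adjusted p = 0.014), with no overlap between the groups. SMA ceftriaxone arrays lay between 11897 and 13009.3, across both ranges. The other 4 tested proteins of the decoding region and channel, Rps3, Rps15, Rps26 and Rps28, did not pass, with log2 fold changes from -0.09 to 0.10. Of the 4 tested proteins that line the exit tunnel for the growing peptide, 0 passed with every array. The highest, Rpl35, was at 0.21 (adjusted p = 0.0549). In this comparison 47.2% of all probe sets passed. Without wildtype array 2, Rpl35 (adjusted p = 0.000481) and Rpl4 (adjusted p = 0.0272) rose, where 30.9% of all probe sets did.

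Rps25, which some viral internal ribosome entry sites need, was read by a dim probe set. It had 149.4, 299.9, 142.8 and 150.3 in wildtype, 293.8, 343.3, 258.9 and 278 in SMA vehicle and 235.5, 256.8, 308.6 and 295 in SMA ceftriaxone cords. It rose by 0.68 ± 0.20 in SMA vehicle cords (adjusted p = 0.0125), although wildtype array 2 lay within the SMA range, and by 0.91 without that array (adjusted p = 3.02e-05). Against wildtype, its value with ceftriaxone was 0.58 (adjusted p = 0.119), and 0.82 without wildtype array 2 (adjusted p = 0.00231).

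Rpl12, at the base of the stalk, was also read by a dim probe set, just above the filter. Its signals were 104.6, 179.5, 96.5 and 95.7 in wildtype, 154.9, 166.8, 204.7 and 202.3 in SMA vehicle and 124.6, 104.8, 116.3 and 106.4 in SMA ceftriaxone cords. It rose by 0.59 ± 0.18 (adjusted p = 0.016), with wildtype array 2 inside the SMA vehicle range, and by 0.78 without that array (adjusted p = 0.0002). It had -0.61 ± 0.18 with ceftriaxone (adjusted p = 0.0174). This second call was lost without SMA vehicle array 3 or 4 and with Xist signal as a covariate (adjusted p = 0.0532 to 0.0764).

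Rplp0, Rplp2, Rpl11 and Rps6, further members with a known place or role, did not pass in any of the 3 comparisons. Rplp0, the core of the stalk that recruits translation factors, had signals of 9877.2, 14046.4, 11855 and 11407.5 in wildtype and 10846.4, 12892.9, 12712 and 13271.6 in SMA vehicle cords. In SMA ceftriaxone cords it had 11330.1, 11278.4, 11757.9 and 11460.4, and the log2 fold changes were 0.08 (adjusted p = 0.503) and -0.11 (adjusted p = 0.378). Wildtype arrays held both its lowest and its highest value. Rplp2, also of the stalk, had 0.04 (adjusted p = 0.664) and -0.09 (adjusted p = 0.331). Rpl11, which binds Mdm2 when ribosome assembly is disturbed, had means of 8146 ± 963, 8128 ± 481 and 8021 ± 520 in wildtype, SMA vehicle and SMA ceftriaxone cords, with adjusted p from 0.880 to 0.986 in the 3 comparisons. Rps6, the substrate of the S6 kinases, had means of 827.7 ± 122, 712.2 ± 28 and 653.2 ± 53, with a log2 fold change of -0.20 in SMA vehicle cords (adjusted p = 0.113) and -0.33 in SMA ceftriaxone cords against wildtype (adjusted p = 0.0863). Its probe set had a mean log2 of 9.53, dimmer than most members. The other Rps6 probe set, below the filter and not tested, went the other way, with 0.59 and 0.80 against wildtype.

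The comparison of the SMA groups asks which members differ between cords with ceftriaxone and with vehicle. Of 45 members, 6 passed, where 35.9% of all probe sets tested did: 3 were higher with ceftriaxone (Rpl7l1, Rps27l and Rpl27a) and 3 lower (Rps4l, Rpl12 and Rpl22l1), that is 6.67% each way, where 18.3% of all probe sets tested were higher and 17.7% lower (limma, adjusted p under 0.05). The median log2 fold change was -0.044 and its median size 0.094, against -0.011 and 0.241 over all probe sets. The arrays of both groups did not overlap for 17 members (37.8%), against 45.3% of all probe sets. Rplp2 was among the 17, with its SMA ceftriaxone arrays below all SMA vehicle arrays at a log2 difference of -0.09.

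Rpl27a, a large-subunit gene read here by a dim probe set, had signals of 161.6, 197.4, 153.2 and 187.2 in wildtype, 135.3, 141.6, 142.1 and 164.4 in SMA vehicle and 193.3, 174.5, 175.6 and 203.4 in SMA ceftriaxone cords. It was higher with ceftriaxone by 0.33 ± 0.12 (adjusted p = 0.0442), with no overlap between the SMA groups. This call was lost in 15 of the alternative settings, among them quantile normalization, median centring and leaving out any SMA ceftriaxone array, SMA vehicle array 1, 2 or 3, or wildtype array 1 or 4 (adjusted p = 0.0503 to 0.113).

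Leaving out wildtype array 2, which changes only the estimate of the spread in this comparison, gave 3 higher and 11 lower members, where 24.6% and 25.6% of all probe sets passed. The 6 called with every array were among the 14. The 8 added, all lower with ceftriaxone, were Rpl22 (-0.55), Rpl14 (-0.42), Rps20 (-0.20), Rpl35 (-0.20), Rps19 (-0.19), Rps7 (-0.15), Rpl6 (-0.15) and Rpl10a (-0.15). Xist, the RNA that coats an inactivated X chromosome, ran from 20.9 to 2343.5 in SMA vehicle and from 1688.5 to 2216 in SMA ceftriaxone cords, and with it as a covariate 1 member stayed lower.

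Between SMA ceftriaxone and wildtype cords 0 of 45 members passed in either direction, where 4.21% of all probe sets tested did, 3.29% higher and 0.928% lower (limma, adjusted p under 0.05). At an unadjusted p under 0.05, 2 members were higher and 1 lower. The median log2 fold change was -0.021 and its median size 0.054, against 0.012 and 0.136 over all probe sets, and no member's arrays were separated, against 11.6% of all probe sets. Without wildtype array 2, Rps25 and Rps19 passed, higher by 0.82 and 0.24 (adjusted p = 0.00231 and 0.0173), where 6.29% of all probe sets were higher and 4.27% lower.

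Probe sets of the same gene differed, and over all members the dim ones had the larger fold changes. Of the 82 tested probe sets of the members, 59 had a mean log2 of 12 or above. In SMA vehicle against wildtype cords 4 of these 59 were higher and 0 lower, with a median size of 0.08 and the largest at 0.35. Of the 23 dimmer probe sets, 7 were higher and 3 lower, with a median size of 0.35 and the largest at 1.26. Over all probe sets tested, 24.9% were higher and 22.3% lower, with a median size of 0.296. Between the SMA groups, 3 of the 59 and 10 of the 23 passed, where 35.9% of all probe sets did.

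**Figure D4:**
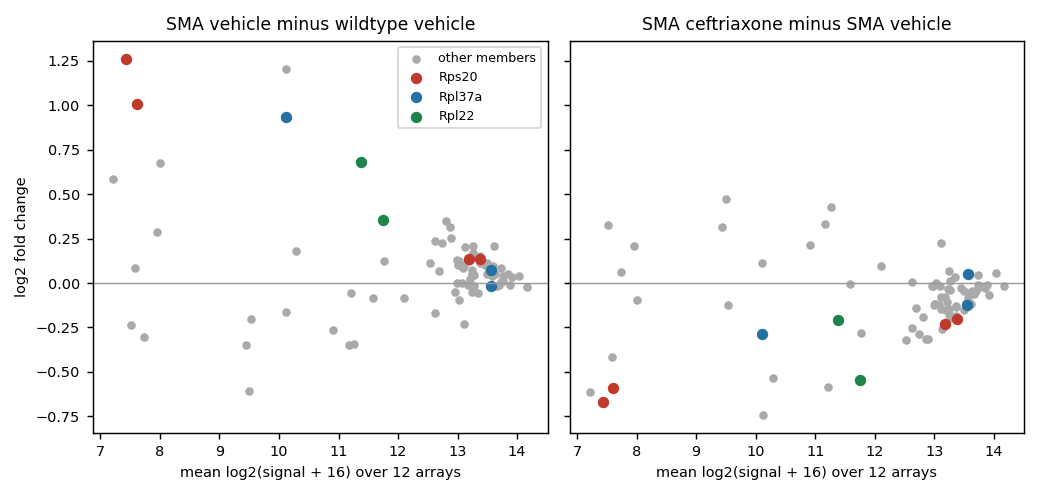
Each point is 1 of the 82 tested probe sets of the ribosomal protein genes, placed by its mean log2 signal over the 12 arrays and its log2 fold change for SMA vehicle minus wildtype (left) and SMA ceftriaxone minus SMA vehicle (right). The dim probe sets of Rps20 (1.26 and 1.01 on the left) and of Rpl37a (0.94) lie far from the bright ones of the same genes.

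Rps20 was the widest case. A dim probe set read 93.2, 96.5, 101.1 and 96.7 in wildtype, 234, 225.8, 269 and 296.6 in SMA vehicle and 138.4, 111.6, 173.2 and 211 in SMA ceftriaxone cords, with no overlap between wildtype and any SMA array. Its log2 fold changes were 1.26 ± 0.16 (adjusted p = 4.6e-05) and -0.67 (adjusted p = 0.00685), and another dim one had 1.01 ± 0.14 (adjusted p = 6.21e-05) and -0.59 (adjusted p = 0.00466). The brightest probe set of Rps20, by contrast, had a mean of 10552 ± 1827 in the wildtype and of 11498 ± 692 in the SMA vehicle group (SD, n = 4) and a log2 fold change of 0.14 (adjusted p = 0.283).

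For Rpl37a, the dimmest of its 3 probe sets read 840.6, 755.4, 708.3 and 710.8 in wildtype, 1412.7, 1505.2, 1460.1 and 1440.1 in SMA vehicle and 1345.9, 1142.8, 1053.6 and 1234.4 in SMA ceftriaxone cords. It rose by 0.94 ± 0.09 in SMA vehicle cords (adjusted p = 3.61e-06) and stayed above wildtype by 0.65 with ceftriaxone (adjusted p = 0.00233). The brightest one had -0.02 (adjusted p = 0.854). Which transcripts the dim probe sets of Rps20 and Rpl37a detect was not tested.

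Cell type markers moved with the same groups. All 11 tested genes of mature oligodendrocytes fell in SMA vehicle against wildtype cords, with a summed signal of 90430 to 146645 in wildtype, 26396 to 55843 in SMA vehicle and 105496 to 115713 in SMA ceftriaxone cords. Of 9 genes of immature neurons 8 rose, with sums of 21886 to 26298, 49871 to 62857 and 24132 to 32789. With ceftriaxone against SMA vehicle, all 11 were higher and all 9 lower (adjusted p under 0.05). The lowest oligodendrocyte sum and the highest immature neuron sum of the wildtype group were both those of array 2. On the other wildtype arrays the oligodendrocyte sums were 119180 to 146645, above every SMA ceftriaxone array. Their immature neuron sums were 21886 to 23457, below every SMA ceftriaxone array. Some other lists moved too. In SMA vehicle against wildtype cords, where 47.2% of all probe sets tested passed, 4 of 7 microglia genes were lower. Of 8 astrocyte genes 4 were lower and 2 higher, of 4 skeletal muscle genes 3 were higher and 1 lower, and 5 of 6 spinal cord genes were higher. With ceftriaxone against SMA vehicle, where 35.9% of all probe sets passed, 4 microglia and 5 astrocyte genes were higher. There 3 muscle genes were lower and 1 higher, and 3 spinal cord genes were lower. Of 2 tested thymocyte genes 1 was lower in the first comparison and 1 higher in the second. In each comparison 0 of 11 cell cycle genes and 0 of 2 blood genes passed, with wildtype array 2 included. The cell cycle sum was 28823 on that array and 5727 to 5847 on the other wildtype arrays. It was 6545 to 7496 in SMA vehicle cords, above those other wildtype arrays, and 4932 to 7138 in SMA ceftriaxone cords. Calls of these marker lists without wildtype array 2 are not given. The labels leave whole cords and lumbar segments unsettled, and whether the same length of cord was taken in each group was not tested. Oligodendrocyte gene Mog at its lowest read 177.3 and immature neuron gene Dcx at its lowest 276.2 (on wildtype array 2), so neither was at 0 in any group. The part of these cell types and cord regions in the changes of Rps4l, Rpl7l1, Rps27l, Rpl22l1 and the other members was not tested.

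Ribosomal parts and translation genes outside the naming rule were described the same way. Fau, which codes for the small-subunit protein eS30 fused to a ubiquitin-like protein, rose by 0.20 ± 0.07 in SMA vehicle cords (adjusted p = 0.0285) and was at -0.21 with ceftriaxone (adjusted p = 0.0312). Rpsa, the small-subunit protein also known as the laminin receptor, rose by 0.19 (adjusted p = 0.0497). Without wildtype array 2, 10 of 19 TOP messenger RNAs that code for no ribosomal protein rose in SMA vehicle cords (52.6%, against 30.9% of all probe sets). With every array, 7 of the 19 rose and 0 fell (36.8% higher, against 24.9% of all probe sets). Among the 7 were the initiation factors Eif4b (0.55, adjusted p = 0.00024) and Eif3h (0.38, adjusted p = 0.00141), the import receptor Ipo5 (0.42) and the RNA-binding protein Hnrnpa1 (0.64). Of the 12 tested regulators of TOP translation 3 rose and 1 fell, or 25% and 8.33%, where 24.9% and 22.3% of all probe sets did. Without wildtype array 2, 5 rose (41.7%, against 30.9% of all probe sets). Tsc2, an inhibitor of mTOR signalling, rose by 0.50 (adjusted p = 0.000904) and was at -0.57 with ceftriaxone. Ddit4, another inhibitor of mTOR, rose by 1.05 ± 0.34 (adjusted p = 0.0231) and was 1.44 higher in SMA ceftriaxone than in wildtype cords (adjusted p = 0.0339). Larp1 was lower with ceftriaxone by a log2 fold change of -0.30 (adjusted p = 0.0278).

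The 91 tested probe sets with several symbols that include a ribosomal protein gene cannot be given to a single gene. In SMA vehicle against wildtype cords 16 of them were higher and 1 lower, where 24.9% and 22.3% of all probe sets were. Between the SMA groups 2 were higher and 10 lower (18.3% and 17.7% of all), and between SMA ceftriaxone and wildtype cords 3 were higher and 0 lower (3.29% and 0.928% of all).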

How the data were processed

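RNA of 12 spinal cords was hybridised as biotin-labelled cRNA, each on its own array, per the labels' protocols. The submitters' processing notes name MAS5, without a version, for the deposited signal intensity of each probe set, which is linear. The authors had scaled the arrays: the mean without the top and bottom 2% was 700 on each. Detection calls were not used. Of 22690 probe sets, 20393 have 1 symbol in the platform annotation of 2016, 691 several and 1606 none; 20364 matched the mouse reference by gene identifier.

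Fold changes are on the scale log2(signal + 16), which understates changes of dim genes. Of 22626 probe sets without controls, the 13575 above the 40th percentile of mean log2 were tested with limma 3.58.1 in R 4.3.3 (a mean per group over all 12 arrays, eBayes with intensity trend, 9 residual degrees of freedom), and two-sided p-values were adjusted over all of them by Benjamini-Hochberg. Paralog pairs were compared by exact permutation. The scripts were tested on simulated data. Members and gene lists were chosen with earlier results of these data known.

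By rule, the text names up to 10 rises and falls past the threshold in each comparison, the stalk genes, Rpl11, Rps6, Rps19, the paralogs with their parents, Smn1, and up to 4 genes of smallest p in each other list. The further probe sets of Rpl22, Rps20, Rpl37a, Rpl7l1, Rps27l and Rps6, the members called without wildtype array 2, Rps3, Rps15, Rps26, Rps28, Rpl35, Eif4b, Ddit4, Larp1 and the marker genes were named after their values were seen, where the rule did not take them. Alternatives were other offsets, scalings and filters, no intensity trend, array weights, only the groups compared, a replicate block, Xist or the Gapdh 3 prime to 5 prime ratio as a covariate, the mean of a gene's probe sets, members without paralogs, and each array left out. The 2 added after seeing the data test every member probe set and the probe sets with several symbols.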

Additional observations from a re-analysis of the deposited data

Results flagged for a closer look

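In 5 of 51 groups of 4 arrays, each of a named member, 1 array lay far from the other 3 (gap over range above Dixon's 95% critical value); chance gives about 1 in 20. In wildtype array 2, Rpl12 had a signal of 179.5 (others 95.7 to 104.6), Rpl22 had 6466 (others 2496.2 to 2837.9) and Rps25 had 299.9 (others 142.8 to 150.3). In SMA ceftriaxone array 3, Rps27l had 2999.8 (others 2636.6 to 2696.8). In SMA ceftriaxone array 2, Rps4x had 11410.2 (others 12048.2 to 12146.8). The causes were not tested.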

How the results depend on the processing

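The number of members called moved with several choices, and no named member's fold change turned its sign past the threshold. The counts below have unlike bases: 45 members in the main fit, 82 probe sets with every member probe set and 41 members without paralogs. The 91 tested probe sets with several symbols are no members. Counts on unlike bases do not by themselves show a change in share. In SMA vehicle against wildtype cords, the 6 higher became 16 with array weights, 11 with every member probe set tested and 16 in the probe sets with several symbols. The 2 lower became 1 with the Gapdh ratio as a covariate, 1 with only the groups compared, 0 without the paralogs and 1 in the probe sets with several symbols. Between the SMA groups, the 3 lower became 12 with array weights, 11 with only the groups compared, 9 with every member probe set, 10 in the probe sets with several symbols, 7 with quantile normalization, 6 with median centring, 6 with the mean of all probe sets, 1 with Xist as a covariate and 1 without paralogs; the 3 higher became 1 without paralogs. Between SMA ceftriaxone and wildtype cords, the 0 higher became 2 with array weights, 1 with the mean of all probe sets, 2 with every member probe set and 3 in the probe sets with several symbols, and the 0 lower became 1 with array weights. Leaving out each array in turn gave 5 to 15 higher and 1 to 2 lower in the first comparison, 2 to 3 and 2 to 11 in the second, and 0 to 2 and 0 to 1 in the third. The cause of these shifts was not tested.

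The replicate numbers did not pair the samples: same-numbered arrays correlated at -0.14 to 0.13 in their deviations from the group means, 2 of 12 pairs above 0.1. With the number as a replicate block, 5 were higher and 2 lower in the first comparison, 2 higher and 3 lower in the second and 0 in the third; Rpl22l1 (adjusted p = 0.0603) and Rpl27a (0.0568) lost their calls. The 12 paralog differences gave 0 calls under each offset and scaling too, which shows nothing about stability, since so small a design can hardly pass the adjustment. The members' median kept its sign in each scaling, from 0.094 (median centring) to 0.104 (quantile) against wildtype. Dim signals limit Rpl12, Rpl14, Rpl27a, Rpl39, Rps25 and Rps27, whose brighter probe sets carry several symbols.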

Other observations

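Other translation genes were counted in the same fit, in which 24.9% of all probe sets rose and 22.3% fell in SMA vehicle against wildtype cords, and 18.3% were higher and 17.7% lower with ceftriaxone against SMA vehicle. Of 35 tested initiation factors, 16 rose and 3 fell in SMA vehicle cords (45.7% and 8.57%), and 1 was higher and 7 lower with ceftriaxone. Without wildtype array 2, 3 were higher and 16 lower with ceftriaxone (8.57% and 45.7%, against 24.6% and 25.6% of all probe sets). The cap-complex scaffold gene Eif4g3 and the cap-binding gene Eif4e were at -0.36 and -0.27 with ceftriaxone (adjusted p = 0.00911 and 0.0112). Of 20 genes of aminoacyl-tRNA synthetases and their complex, 5 rose and 1 fell in SMA vehicle cords (25% and 5%). With ceftriaxone 1 was higher and 8 lower (5% and 40%). Without wildtype array 2, 8 rose in SMA vehicle cords (40%, against 30.9% of all probe sets). Kars, for lysine, rose by 0.41 ± 0.08 (limma adjusted p = 0.00102), while Iars, for isoleucine, fell by 0.65 ± 0.08 (adjusted p = 2.92e-05) and was higher with ceftriaxone by 0.59 (adjusted p = 0.000168).

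Genes of ribosome assembly in the nucleolus went both ways: of 86 tested, 16 rose and 11 fell in SMA vehicle cords (18.6% and 12.8%). Without wildtype array 2, 30 rose and 8 fell (34.9% and 9.30%, against 30.9% and 27.5% of all probe sets). Nop56, a core protein of box C/D snoRNPs, rose by 0.53 ± 0.11 (adjusted p = 0.00196). Sbds, which helps to free the large subunit for translation, fell by 0.77 ± 0.09, from a mean of 1375 ± 121 to 800.2 ± 54.1 (SD, n = 4; adjusted p = 1.53e-05), and was higher with ceftriaxone by 0.68 (adjusted p = 0.00011). Of 74 tested mitochondrial ribosomal protein genes, 6 rose and 14 fell (8.11% and 18.9%). Mrpl36 fell by 0.75 ± 0.08, from 643.6 ± 43.8 to 376.9 ± 16.5 (adjusted p = 1.03e-05). Whether these lists differ from the cytosolic ribosomal protein genes was not tested.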
